A study of Mus musculus with 5 samples.

Results

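The solute carrier (SLC) genes other than the mitochondrial SLC25 carriers were followed in whole hearts of lupus-prone and healthy mice. Members were genes whose symbol in the probe annotation begins with Slc, a family number, the letter a and a member number, leaving out Slc25a genes, the sodium-calcium exchanger Slc8a1 and the red cell anion exchanger Slc4a1. The brightest probe set, averaged over the arrays, stood for each gene. Members were selected on the brightness of that probe set, which had to exceed the array median on 2 or more of 5 arrays, so measured levels chose them, and a gene above it in a single group could pass. The list of heart transporters used below was drawn up with earlier results known. Of 274 such genes on the array, 161 passed this brightness rule and 113 did not, out of 11902 genes tested in all. The symbol pattern also takes in 3 tested genes that are not transporters: the scaffold proteins Slc9a3r1 and Slc9a3r2, and Slc4a1ap, named for its link to an anion exchanger.

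RNA from 5 samples of female mouse heart was hybridised to Affymetrix mouse whole-genome arrays, in a pilot search for genes altered in hearts of nephritic mice. The 3 NZB_W samples came from mice of the F1 cross of the NZB and NZW strains. These had lupus nephritis with moderate kidney injury by Austin score and were 12 to 15 weeks old. The 2 control samples came from healthy, age-matched NZW animals without kidney injury. No mouse was treated, and all hearts were taken after bleeding and saline perfusion. Genotype and disease differ together between the groups and cannot be told apart. Titles name the arrays biological replicates, without saying whether each is 1 mouse, and 3 against 2 arrays limit the precision of every value.

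Solute carriers are membrane proteins that move small molecules down a gradient or against it by coupling to sodium, protons or another solute. In the heart they bring in glucose, lactate, fatty acids, carnitine, creatine and amino acids, set intracellular pH and chloride, and move zinc, iron and phosphate between compartments. Families are numbered by sequence relation, and the substrate mostly follows the family.

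Values are log2 expression levels per probe set, so a difference of 1 is a doubling. The array medians lay between 4.62 and 4.68, and all 10 cardiomyocyte markers on the list passed the brightness rule. Myl7, the light chain of atrial myosin, read 3.87, 10.24 and 13.01 in NZB_W and 13.14 and 4.76 in NZW, while Myh6, the main myosin heavy chain of mouse heart, read 14.15, 14.18 and 14.09 against 14.25 and 14.25. The arrays thus differed widely in an atrial marker within both groups, and its part in the results was not tested beyond leaving out the arrays lowest in it, NZB_W array 1 and NZW array 2. Without them Slc6a16, Slc26a7 and Slc17a7 differed by -1.82, -1.40 and -1.12, Slc10a6 by 0.14 and Slc19a2 by -0.11, and 3 members had an unadjusted p under 0.05 (1.9%, against 4.34% of all genes). NZB_W array 3 also stood apart from the others. Its correlation with NZB_W arrays 1 and 2 over probe sets was 0.977 and 0.982, where that of arrays 1 and 2 was 0.993. On that array the summed level of 15 macrophage markers was 13.2 on a log2 scale, against 12.4 to 12.5 on the other NZB_W arrays and 11.8 to 12.3 on the NZW arrays. The summed level of 8 fibroblast markers was 14.4 there, against 13.4 to 13.8 on the other 4 arrays. Both sums are of unlogged values, so the brightest genes weigh most. Col3a1 read 12.41 there and 10.26 to 11.11 elsewhere, and Postn 10.72 and 7.86 to 8.83. Dcn read 12.80 and 12.52 to 12.79, while Lum and Tcf21, at 11.22 and 7.69, lay within the range of the other arrays.

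No member passed the adjusted threshold in the comparison of NZB_W with NZW hearts (0 of 161, limma with Benjamini-Hochberg adjustment over 11902 genes), where 1 gene in all passed, or 0.0084% of those tested. At an unadjusted p under 0.05 there were 6 members, or 3.73%, against 5.55% of all genes. Of these 2 were higher in NZB_W, where 2.51% of all genes were, and 4 were lower, where 3.03% were. The median log2 difference of members was 0.017, beside -0.014 for all genes and -0.026 for 38 Slc25a genes. In 26 members (16.1%) the groups did not overlap, against 17.4% of all genes tested. They were 15 higher (9.32%, against 7.6% of all genes) and 11 lower (6.83%, against 9.83%). Overlap was judged on unrounded values, for members and all genes alike. Slc7a5, Slc1a5, Slc37a4 and Slc30a6 thus counted as separate, though their nearest NZB_W and NZW values are equal after rounding. In sign alone, 88 members (54.7%) were higher, against 45.5% of all genes, and 54.5% of all genes were lower. Without the 3 members that passed the brightness rule through NZB_W arrays only, 13 were higher without overlap (8.23%). The shares at an unadjusted p under 0.05 and without overlap were near those of all genes, while more members than genes in general were higher in NZB_W.

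Large differences were few. A log2 difference beyond 1 in either direction was found in 4 members (2.48%), where all genes gave 0.739%, and beyond 0.5 in 8 members (4.97%), where all genes gave 3.52%. The 4 were Slc6a16, Slc26a7 and Slc17a7, lower in NZB_W, and Slc15a2, higher in NZB_W. Slc15a2 passed the brightness rule through NZB_W arrays only, and without such members 3 of 158 (1.9%) were beyond 1.

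Slc6a16, an orphan member of the sodium- and chloride-coupled transporter family, read 4.87, 4.68 and 5.39 on the NZB_W arrays and 6.85 and 6.88 on the NZW arrays. All 3 NZB_W values lay below both NZW values, by at least 1 unit. The means were 4.98 ± 0.363 (SD, n = 3) and 6.87 ± 0.0219 (SD, n = 2), a log2 difference of -1.89 (SE 0.22, 95% interval -2.47 to -1.30, limma adjusted p = 0.364), or 3.70-fold lower. Its difference lay between -2.09 and -1.74 under the 17 other settings tried, and its adjusted p between 0.0548 with array weights and 1.0 without NZW array 2.

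Slc17a7, the vesicular transporter VGLUT1 that loads glutamate into synaptic vesicles, read 5.29, 5.68 and 6.02 in NZB_W and 6.97 and 6.38 in NZW. The groups did not overlap, but the lowest NZW value lay close to the highest NZB_W value. The log2 difference was -1.02 (SE 0.29, adjusted p = 0.841), and without NZW array 1 it was -0.72.

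Slc17a7 and Slc6a16 are neighbours on chromosome 7 in the RefSeq gene order of GRCm38.p6, with 2 tested genes between them, Pth2 and Tead2, and 6 protein-coding genes in all. This was noticed after their values were seen. Pth2, a parathyroid hormone relative, differed by 0.045 (SE 0.067), and Tead2, a transcription factor of the Hippo pathway, by -0.44 (SE 0.20). Among the 18 other genes in a window that reaches 8 tested genes past each, 9 were higher and 9 lower in NZB_W, with differences from -0.48 to 0.35. Only Nosip, which binds nitric oxide synthases, had an unadjusted p under 0.05 among these 18, at -0.48 (SE 0.15). The differences of Slc17a7 and Slc6a16 were larger than that of any of the other 18. The window was drawn around them after these differences were seen, so that contrast says nothing about the region.

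**Figure D1:**
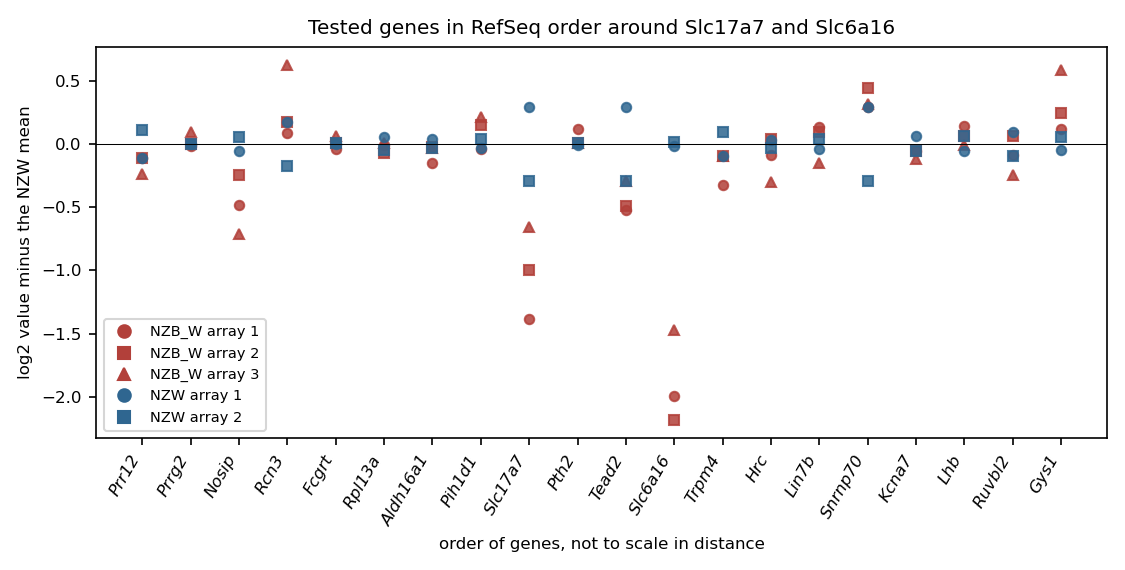
Log2 value of each array minus the mean of the NZW arrays (vertical axis) for 20 tested genes in chromosome order (horizontal axis, not to scale), with NZB_W arrays in red and NZW arrays in blue. Slc17a7 and Slc6a16 have all NZB_W points below both NZW points, with differences of -1.02 and -1.89. The other 18 genes differ by -0.48 to 0.35. The window was drawn around Slc17a7 and Slc6a16 after their values were seen.

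The bases upstream of these neighbours are shown because both were lower and lie near each other. Each is the 250 bases before the gene start from the RefSeq promoter table (GRCm38.p6), read 5′ to 3′ on the plus strand, with each CG dinucleotide in capitals. Slc6a16 is at chr7:45240503-45240752 and Slc17a7 at chr7:45163671-45163920. Both are reference genome sequences, and those of NZB and NZW mice were not examined.
Slc6a16: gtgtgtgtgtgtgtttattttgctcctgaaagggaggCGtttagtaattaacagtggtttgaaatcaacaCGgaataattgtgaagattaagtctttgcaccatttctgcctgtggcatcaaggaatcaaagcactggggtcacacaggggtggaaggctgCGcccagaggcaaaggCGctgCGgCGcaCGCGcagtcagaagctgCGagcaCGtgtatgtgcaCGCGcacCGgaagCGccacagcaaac
Slc17a7: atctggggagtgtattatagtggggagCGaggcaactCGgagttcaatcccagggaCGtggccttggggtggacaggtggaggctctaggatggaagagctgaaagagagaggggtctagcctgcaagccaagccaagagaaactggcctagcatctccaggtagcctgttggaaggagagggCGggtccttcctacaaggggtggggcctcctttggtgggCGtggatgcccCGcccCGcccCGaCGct
The Slc6a16 window holds 14 CG dinucleotides and the Slc17a7 window 9, and 72.7% and 62.2% of all 32851 windows in the table hold as few or fewer. G and C make up 52.4% of the Slc6a16 window and 61.2% of the Slc17a7 window. The GC box (GGGCGG, either strand) matched 0 times upstream of Slc6a16 and 3 times upstream of Slc17a7, with 2 of these overlapping by 1 base, and it occurs in 32.7% of windows. The TATA box (TATAAA, either strand) matched in neither and occurs in 12.4% of windows.

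Slc26a7, an anion exchanger and chloride channel known from stomach, kidney and thyroid, read 6.02, 6.58 and 5.95 in NZB_W and 7.66 and 7.83 in NZW. Its groups were separated by more than the range within either. The means were 6.18 ± 0.343 (SD, n = 3) and 7.74 ± 0.121 (SD, n = 2), a log2 difference of -1.56 (SE 0.22, 95% interval -2.13 to -0.99, limma adjusted p = 0.479), or 2.95-fold lower. A dimmer probe set of Slc26a7 (1425841_at) read 4.57, 4.74 and 4.42 against 5.52 and 5.39, a difference of -0.87 (SE 0.12, adjusted p = 0.386 in a fit of every bright probe set). On that probe set NZB_W arrays 1 and 3 lay below their array medians, so the size of its difference is uncertain.

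Slc15a2, the oligopeptide transporter PEPT2, read 5.23, 5.04 and 4.68 in NZB_W and 3.09 and 4.59 in NZW. The difference of 1.14 (SE 0.48, adjusted p = 0.859) rested on NZW array 1: without it the difference was 0.39. Both NZW values lay below their array medians, and with these medians in their place the difference was 0.35. Slc46a1 and Slc23a1 also passed the brightness rule through NZB_W arrays only. Slc46a1 was higher by 0.20, so the rule partly fixed the direction of Slc15a2 and Slc46a1. Slc23a1 was not higher, with a difference of -0.027.

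**Figure D2:**
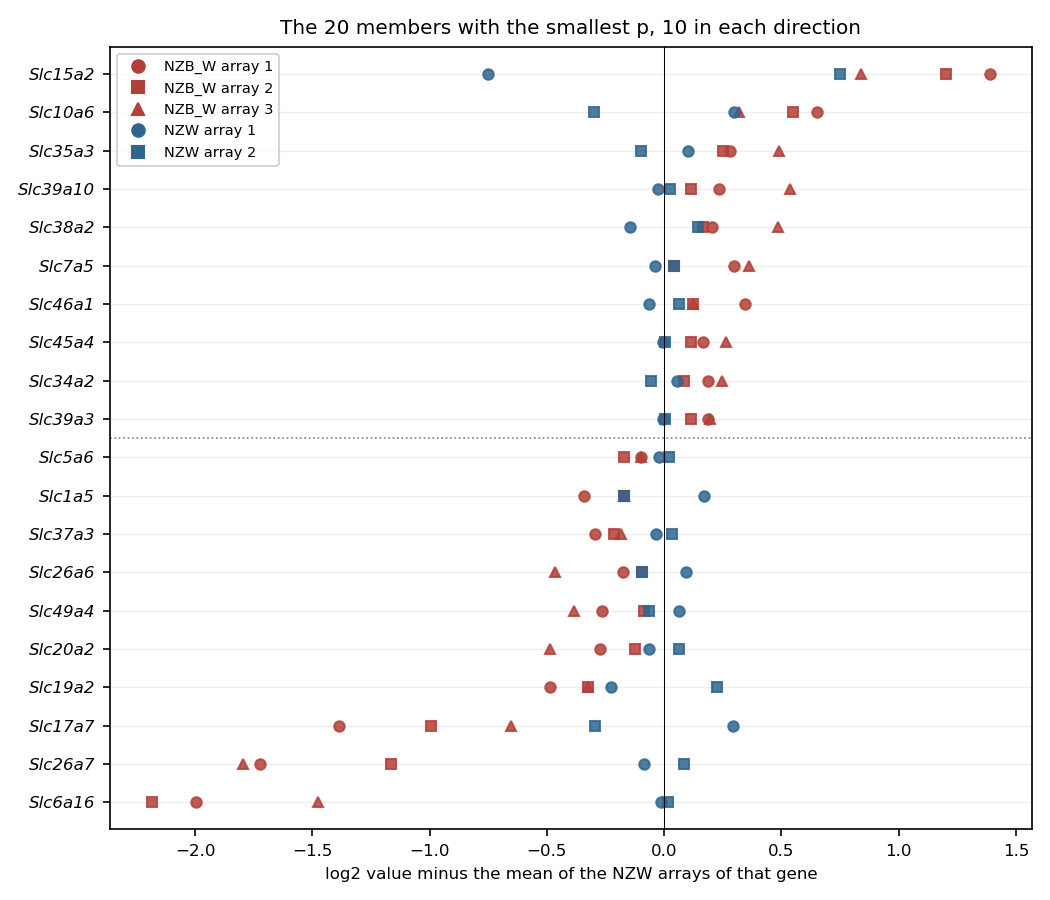
Log2 value of each array minus the mean of the NZW arrays (horizontal axis) for the 20 members with the smallest p, 10 per direction (vertical axis), with NZB_W arrays in red and NZW arrays in blue. Slc6a16, Slc26a7 and Slc17a7 lie farthest to the left, and in Slc15a2 the NZW points are far apart, at 3.09 and 4.59.

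Sugar transporters were represented by 18 tested members of 28 on the array, with 11 higher and 7 lower, a median difference of 0.035 and a range from -0.23 to 0.20. Slc2a4, the insulin-responsive glucose transporter GLUT4 of muscle, read 10.86, 10.98 and 10.68 in NZB_W and 10.92 and 10.89 in NZW. The groups overlapped, and the log2 difference of -0.063 had a 95% interval from -0.33 to 0.21. Slc2a1, the basal glucose transporter GLUT1, differed by 0.072, with an interval from -0.18 to 0.32. The sugar-phosphate family member Slc37a3 read 6.04, 6.12 and 6.15 against 6.30 and 6.37, without overlap, a difference of -0.23 (SE 0.068, adjusted p = 0.859). Its other bright probe set differed by -0.043 (SE 0.060). Slc45a4, a putative proton-coupled sugar transporter, read 7.42, 7.37 and 7.52 against 7.25 and 7.26, a difference of 0.18, while its other probe sets differed by 0.029 and -0.017. Slc37a4, which carries glucose 6-phosphate into the endoplasmic reticulum, differed by -0.11, and the sugar exporter Slc50a1 by 0.036.

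Carriers of carboxylates were 7 tested of 19, with a median of 0.017. Slc16a1, the lactate and pyruvate transporter MCT1, read 11.46, 11.49 and 11.36 in NZB_W and 11.43 and 11.01 in NZW. Its groups overlapped, and the difference of 0.22 (95% interval -0.16 to 0.60) was 0.0021 without NZW array 2. Slc16a3, the lactate exporter MCT4, lay below the array median on every array, between 3.92 and 4.07. Slc13a3, a sodium-coupled dicarboxylate transporter, differed by 0.46 (SE 0.27), or 0.23 without NZB_W array 3. Slc16a9, a monocarboxylate family member, differed by -0.16.

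Only 4 carriers of fatty acids and carnitine passed the brightness rule, of 8 on the array. Slc22a5, the carnitine importer OCTN2, read 7.52, 7.54 and 7.32 in NZB_W and 7.54 and 7.70 in NZW, a difference of -0.16 (95% interval -0.42 to 0.11). The fatty acid transport proteins Slc27a1 and Slc27a4 differed by -0.052 and -0.11. Slc27a2, another of that family, read 5.41, 5.95 and 6.80 against 5.42 and 5.94, and its difference of 0.37 was 0.00052 without NZB_W array 3. In 0 of these 4 did the groups separate, and 17.4% of all genes did.

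Amino acid and peptide transporters formed the class with the most members, 31 tested of 50, with 18 higher, 13 lower and a median difference of 0.017. In 6 of them the groups did not overlap (19.4%, against 17.4% of all genes), 5 higher, with Slc15a2 among them, and 1 lower. After rounding, the groups of Slc7a5 met at 5.86 and those of Slc1a5, the lower one, at 6.55. Slc38a2, the sodium-coupled transporter SNAT2 that responds to amino acid shortage, read 11.55, 11.51 and 11.83 in NZB_W and 11.20 and 11.49 in NZW, a difference of 0.28 (SE 0.15, adjusted p = 0.859). It was 0.14 without NZW array 1 and 0.43 without NZW array 2. Its other probe sets differed by 0.23 and 0.074. Slc7a5, the large neutral amino acid transporter LAT1, read 6.12, 5.86 and 6.18 against 5.78 and 5.86, a difference of 0.24 (SE 0.12). Its partner chain Slc3a2 differed by -0.058, with an interval from -0.32 to 0.20. Slc7a1, the arginine and lysine transporter CAT1, differed by 0.31 (SE 0.29), with NZB_W arrays 1 and 2 the highest and array 3 the lowest of all. Its other probe set read 9.72, 9.82 and 9.33 in NZB_W and 9.21 and 9.49 in NZW, a difference of 0.27 (SE 0.18). Slc1a5, the glutamine exchanger ASCT2, differed by -0.23 (SE 0.13), or -0.058 without NZW array 1. The amino acid carrier family member Slc38a10 differed by 0.0044.

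Of the members known from immune cells, 4 that were highest on NZB_W array 3 were picked after their values were seen. Slc40a1 and Slc15a4, also known from such cells, were not highest there. Slc11a1, the phagosomal metal transporter Nramp1, read 5.73, 5.49 and 6.55 in NZB_W and 5.50 and 5.19 in NZW. Slc15a3, a lysosomal peptide and histidine transporter of immune cells, read 5.07, 4.90 and 6.26 against 4.88 and 4.69. Their differences of 0.58 (SE 0.35) and 0.62 (SE 0.45) were 0.26 and 0.20 without that array. Slc37a2, a sugar-phosphate exchanger abundant in macrophages, and Slc7a7, a light chain for cationic amino acid export, differed by 0.20 and 0.13. Without that array they differed by 0.067 and -0.19. Another Slc7a7 probe set (1447181_s_at) read 5.25, 5.25 and 5.16 against 5.65 and 5.23, lowest on NZB_W array 3. Its difference was -0.22 (SE 0.14). The macrophage markers were higher in NZB_W in 15 of 15 members with a median of 0.64, and 11 of the 15 did not overlap, where 45.5% of all genes were higher and 17.4% did not overlap. The integrin Itgam, for example, read 5.09, 4.76 and 5.39 in NZB_W and 3.69 and 3.77 in NZW. Lyz2, counted among the 11, read 10.23 on both NZB_W array 2 and NZW array 1 after rounding. The part of the macrophage markers in these SLC values was not tested. In whole tissue, fewer cells of a type and less RNA per cell cannot be told apart.

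Over all members, NZB_W array 3 was the highest or lowest of the 5 arrays in 93 (57.8%), against 56.1% of all genes tested. It was the highest in 62 (38.5%) and the lowest in 31 (19.3%), against 30.5% and 25.6% of all genes. Slc6a6, the taurine transporter, showed this most plainly among the transporters long studied in heart. Its NZB_W values were 9.57, 9.65 and 10.60 and its NZW values 9.45 and 9.72. NZB_W arrays 1 and 2 lay within the NZW range. Its difference of 0.35 (95% interval -0.59 to 1.28) was 0.018 without array 3. A dimmer Slc6a6 probe set (1421346_a_at) read 8.97, 9.03 and 9.92 against 8.74 and 8.75, without overlap, a difference of 0.56 (SE 0.32).

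Slc6a8, the creatine transporter, read 10.32, 10.52 and 10.69 in NZB_W and 10.38 and 10.58 in NZW, a difference of 0.031 with a 95% interval from -0.33 to 0.39. With Slc6a6, Slc6a16 and the neurotransmitter family members it belongs to a class of 7 tested of 24, whose median difference was 0.031. The vesicular amino acid transporter Slc6a17 differed by 0.054.

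**Figure D3:**
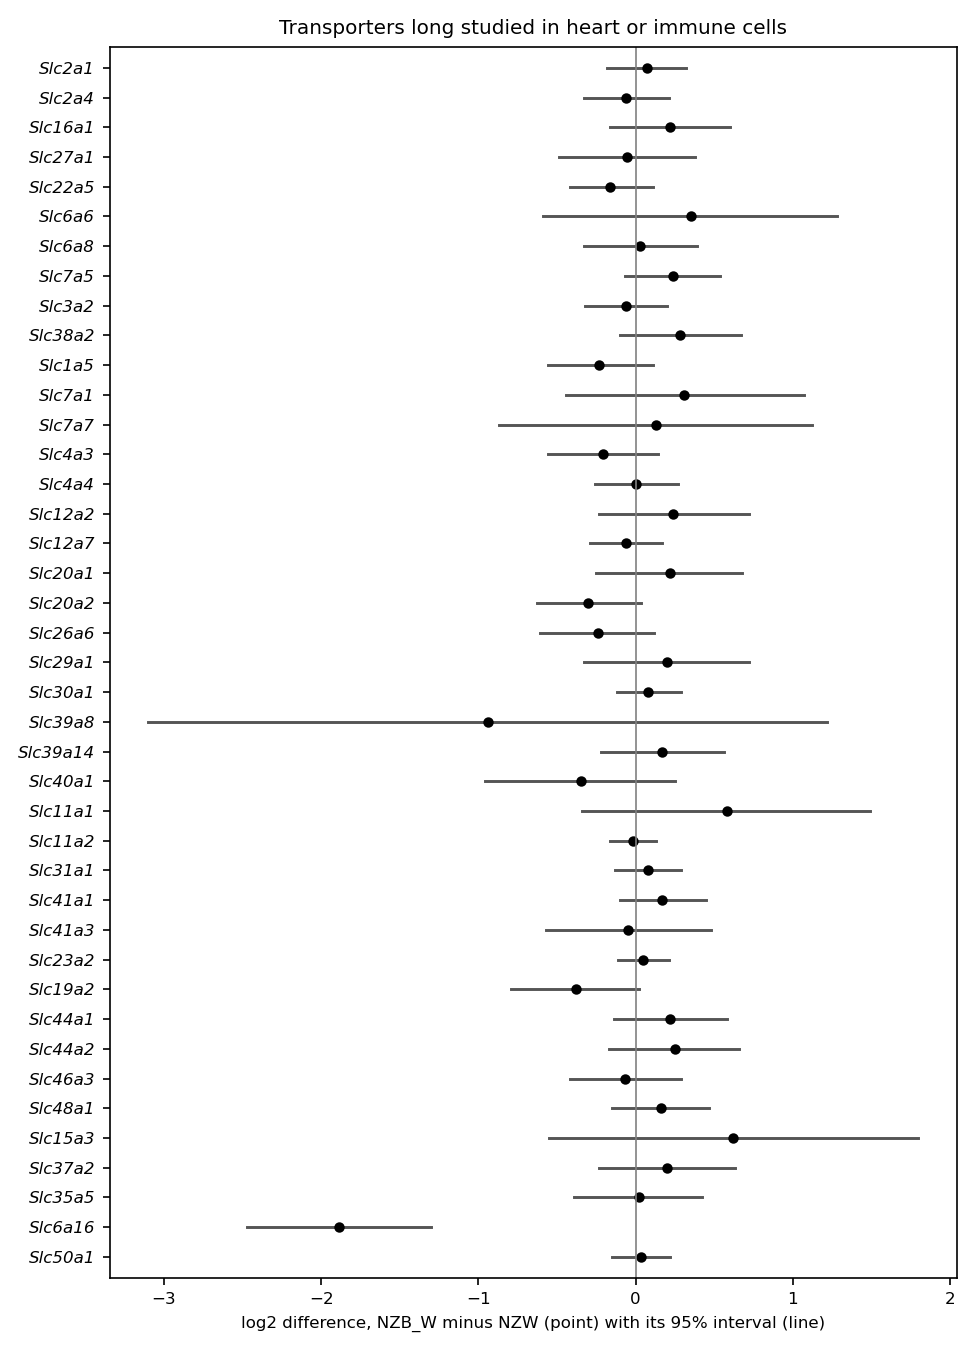
Log2 difference, NZB_W minus NZW, with its 95% interval from limma (horizontal axis) for all 41 tested members of the list of transporters long studied in heart or immune cells (vertical axis). The interval includes 0 in 40 of the 41 and excludes it in Slc6a16, an orphan transporter put on the list with its earlier result known, and the interval of Slc39a8, from -3.10 to 1.22, is wider than that of Slc2a4, from -0.33 to 0.21.

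Ion exchangers and cotransporters for sodium, protons, chloride, bicarbonate and potassium had 17 tested members of 29, and in 0 of them did the groups separate, where 17.4% of all genes did. Their differences ran from -0.36 to 0.24 with a median of -0.012. Slc4a3, the chloride-bicarbonate exchanger AE3 of cardiac muscle, read 9.79, 9.92 and 9.54 in NZB_W and 10.02 and 9.90 in NZW, a difference of -0.21 (95% interval -0.56 to 0.14). Slc4a4, the sodium-bicarbonate cotransporter NBCe1, differed by 0.0046 on its brightest probe set and by -0.24 (SE 0.084), without overlap, on another (1452071_at). Slc12a2, the sodium-potassium-chloride cotransporter NKCC1, and Slc12a7, the potassium-chloride cotransporter KCC4, differed by 0.24 and -0.058. The value of Slc12a2 was 0.098 without NZB_W array 3, and its other probe sets differed by -0.053 and 0.043. Slc12a9 and the borate or proton transporter family member Slc4a11 differed by 0.14 and 0.15.

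Phosphate, sulfate and anion carriers were 11 tested of 22. They held 2 of the 6 members with an unadjusted p under 0.05, Slc26a7 and Slc17a7 (18.2%, against 5.55% of all genes). In 4 of the 11 the groups did not overlap (36.4%, against 17.4% of all genes), 1 higher and 3 lower. These counts are too small to describe the class, in which Slc17a7, the glutamate transporter described above, was kept. Slc20a2, the phosphate importer PiT2, read 9.53, 9.68 and 9.32 in NZB_W and 9.74 and 9.87 in NZW, a difference of -0.30 (SE 0.13, adjusted p = 0.859) without overlap. Its other probe set differed by -0.38 (SE 0.37). The related importer Slc20a1, PiT1, differed by 0.22 (SE 0.18) and its groups overlapped. Slc26a6, an anion exchanger of the heart, differed by -0.24, and Slc34a2, the phosphate transporter NaPi-IIb of lung and gut, by 0.17.

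Metal transporters were 24 tested of 32, evenly split at 12 higher and 12 lower, with a median of 0.032. The groups did not overlap in 5 of them (20.8%, against 17.4% of all genes), among which were the zinc importers Slc39a3 and Slc39a10. Slc39a3 read 6.01, 5.94 and 6.02 in NZB_W and 5.82 and 5.83 in NZW, a difference of 0.17 (SE 0.059, adjusted p = 0.859), while its other probe set differed by 0.061. Slc39a10 read 8.03, 7.91 and 8.33 against 7.77 and 7.82, a difference of 0.29 (SE 0.14), and 0.13 on its other probe set. The zinc exporter Slc30a1, whose gene is induced by zinc, differed by 0.082 (95% interval -0.12 to 0.29), and Slc30a9 by -0.20 (SE 0.13). Slc39a14, an importer of zinc, iron and manganese, differed by 0.17 (SE 0.15).

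Slc39a8, a zinc and manganese importer, read 3.64, 4.08 and 4.87 in NZB_W and 6.36 and 3.91 in NZW. A single NZW array stood high, and the 95% interval of the difference ran from -3.10 to 1.22. Slc40a1, the iron exporter ferroportin, read 7.61, 7.59 and 8.17 against 7.97 and 8.32, a difference of -0.35 (SE 0.23), or -0.55 without NZB_W array 3 and -0.18 without NZW array 2. The iron importer Slc11a2 and the copper importer Slc31a1 differed by -0.017 and 0.079. On another Slc11a2 probe set (1452078_a_at) the values were 5.56, 5.62 and 5.67 against 5.38 and 5.36. There the difference was 0.25 (SE 0.064) without overlap, and on 1426441_at it was 0.079 (SE 0.074). The magnesium transporters Slc41a1 and Slc41a3 differed by 0.17 and -0.047.

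Among 13 tested carriers of vitamins, choline and heme, of 19 on the array, Slc19a2, the thiamine transporter THTR1, read 6.48, 6.64 and 6.64 in NZB_W and 6.74 and 7.19 in NZW. Its difference of -0.38 (SE 0.15, adjusted p = 0.859) was -0.16 without NZW array 2, and its other probe set differed by -0.42 (SE 0.14) without overlap. Slc49a4 read 7.52, 7.70 and 7.40 against 7.85 and 7.72, a difference of -0.25 (SE 0.11). Slc5a6, the biotin and pantothenate transporter, and the folate transporter Slc46a1 differed by -0.12 and 0.20. The choline transporters Slc44a1 and Slc44a2 differed by 0.22 and 0.25 on their brightest probe sets and by -0.095 and 0.023 on the next ones. The ascorbate transporter Slc23a2 differed by 0.046 (95% interval -0.11 to 0.21), the heme transporter Slc48a1 by 0.16 and Slc46a3 by -0.067. In 4 of the 13 the groups did not overlap (30.8%, against 17.4% of all genes), a count too small to describe the class. Of these 3 were lower, and the 1 higher was Slc46a1, which passed the brightness rule through NZB_W arrays only.

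Nucleoside and nucleotide sugar carriers were 10 tested of 11. Slc35a3, which brings UDP-N-acetylglucosamine into the Golgi, read 7.31, 7.28 and 7.52 in NZB_W and 7.13 and 6.93 in NZW, a difference of 0.34 (SE 0.11, 95% interval 0.047 to 0.64, adjusted p = 0.859). Of its other bright probe sets, 1429649_at differed by 0.33 (SE 0.15) and 1424579_at by -0.00066 (SE 0.073). Slc29a1, the adenosine transporter ENT1 of cardiac muscle, differed by 0.20 (95% interval -0.33 to 0.72), or -0.10 without NZW array 2. Slc35a2, the Golgi transporter for UDP-galactose, differed by 0.36 (SE 0.30), with its 4 other bright probe sets between -0.081 and 0.093. Slc35a4 and Slc35a5 differed by -0.057 and 0.019.

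Organic ion and drug carriers, 16 tested of 27, had the highest class median, 0.10, with 11 higher and 5 lower. Slc10a6, a carrier of sulfated steroids, read 7.89, 7.79 and 7.56 in NZB_W and 7.54 and 6.94 in NZW. The groups did not overlap, though NZB_W array 3 and NZW array 1 nearly met, and the difference of 0.51 (SE 0.21, adjusted p = 0.859) was 0.21 without NZW array 2 and 0.81 without NZW array 1. Slc22a15 and Slc22a17, members of the organic cation family, differed by 0.16 and 0.15, and Slc47a1, a drug and toxin exporter, by 0.067.

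**Figure D4:**
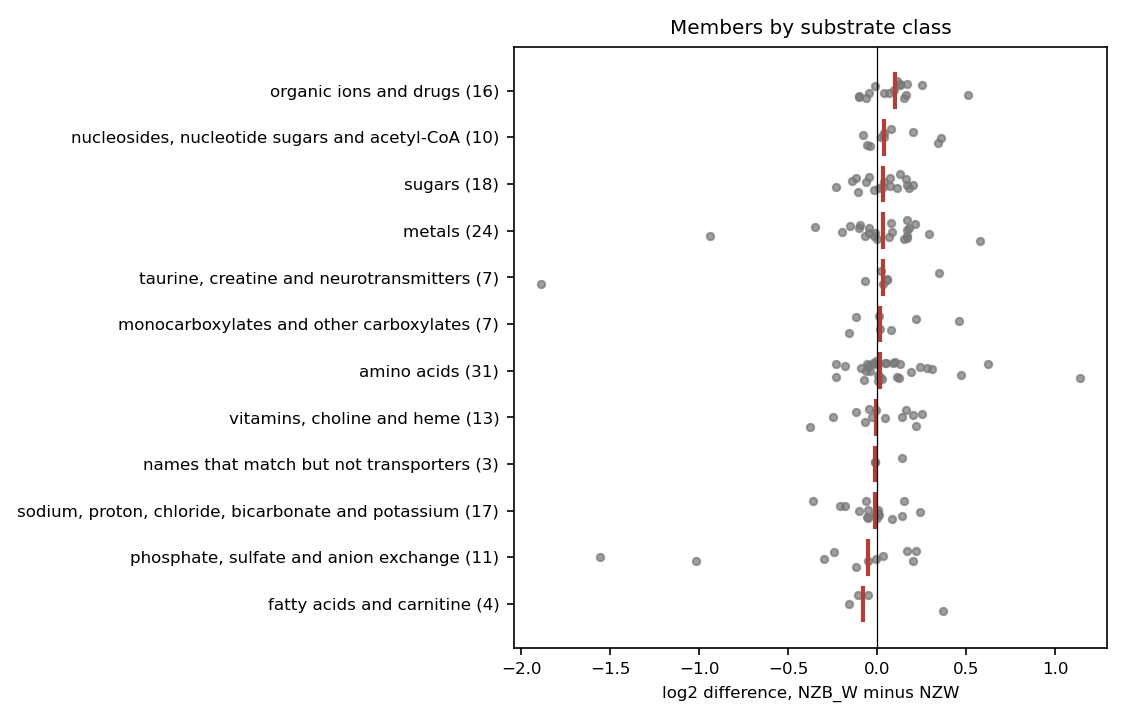
Log2 difference, NZB_W minus NZW (horizontal axis), of each of the 161 members (grey points) by substrate class with the number tested (vertical axis), and the class median (red bar). Class medians lie between -0.08 for fatty acids and carnitine and 0.10 for organic ions and drugs, and single members such as Slc6a16 at -1.89 lie far outside their class.

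Other probe sets of the same gene give another measurement on the same arrays. Of the 161 members, 65 had at least 1 more bright probe set, and in 38 of these every bright probe set had the sign of the brightest one. Among these 94 further probe sets 0 passed the adjusted threshold and 9 had an unadjusted p under 0.05. That is a larger share than the 5.17% of all 20210 bright probe sets. With the brightest probe sets of members included, 15 of 255 had one (5.88%). In 3 of the 94 the difference was more than 0.5 away from that of the brightest, and they were picked for this. Those are Slc26a7, described above, Slc38a4 and Slc26a2.

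Slc38a4, an amino acid transporter whose gene is imprinted in mice, read 5.94, 6.38 and 6.12 in NZB_W and 6.51 and 6.25 in NZW on its brightest probe set, a difference of -0.23 (SE 0.16) with overlap. On the other (1428111_at) it read 4.62, 4.82 and 4.41 against 5.65 and 5.84, a difference of -1.13 (SE 0.15, adjusted p = 0.369), whose size is uncertain because NZB_W arrays 1 and 3 lay below their array medians. Slc26a2, a sulfate transporter needed for cartilage matrix, differed by -0.12 (SE 0.20) on its brightest probe set. On 1443882_at it read 5.56, 5.70 and 6.13 against 4.61 and 4.97, a difference of 1.0 (SE 0.22, adjusted p = 0.715), with NZW array 1 below its array median. Which transcripts each probe set binds was not examined.

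**Figure D5:**
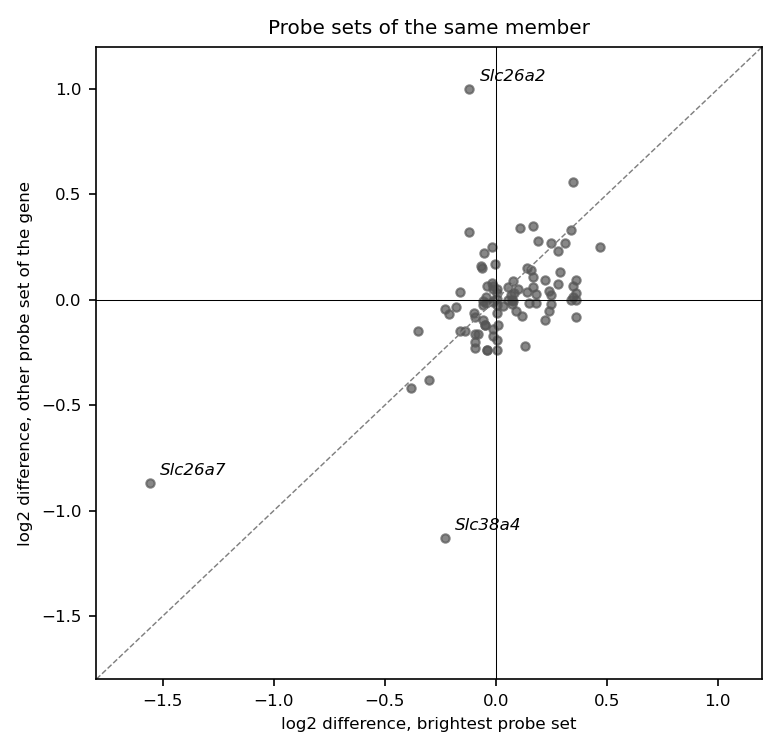
Log2 difference, NZB_W minus NZW, of the brightest probe set of a member (horizontal axis) and of each of its other bright probe sets (vertical axis), 94 points from 65 members, with a dashed line of equality. Most points lie near 0 on both axes, Slc26a7 lies low on both at -1.56 and -0.87, and Slc38a4 and Slc26a2 are far from the line.

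Many SLC values are repeated exactly. In 38 members (23.6%) at least 3 of the 5 arrays held the same value within 1e-06 log2 units, against 16.9% of all genes and 10.5% of Slc25a genes. In 8 members, Slc13a2, Slc5a2, Slc19a1, Slc24a3, Slc17a9, Slc22a18, Slc22a14 and Slc1a7, 4 arrays did so. Slc19a1, the reduced folate carrier, for example read 6.78 on 4 arrays and 6.65 on NZB_W array 3. The SE of a member with repeated values was not read as its precision.

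The brightness rule had 5 members at its edge, above the array median on 2 arrays: Slc39a8, Slc23a1, Slc46a1, Slc2a3 and Slc9a7. Another 7, Slc22a13, Slc6a13, Slc26a8, Slc7a2, Slc1a3, Slc7a13 and Slc41a2, were above it on 1 array and were left out. Just inside, Slc9a7 read 4.76 and 4.75 on its highest arrays. Just outside, Slc41a2 read 5.37 on NZB_W array 3 and at most 4.64 elsewhere.

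Partners and regulators of these transporters, 52 tested of 64 listed, had 28 higher and 24 lower in NZB_W, a median of 0.016, and 0 that passed the adjusted threshold. At an unadjusted p under 0.05 there were 2 of 52, a smaller share than the 5.55% of all genes. Crat, carnitine acetyltransferase, read 9.95, 10.11 and 9.73 in NZB_W and 10.22 and 10.36 in NZW, a difference of -0.36 (SE 0.13, adjusted p = 0.859). Atf4, a transcription factor that induces amino acid transporters, read 9.35, 9.40 and 9.45 against 9.19 and 9.27, a difference of 0.17 (SE 0.065, adjusted p = 0.859). Both separated the groups, as 14 of the 52 did, a larger share than the 17.4% of all genes.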

How the data were processed

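Deposited values are log2 expression levels, 1 per probe set and array. Per the submitters' processing notes RMA, GCRMA and Partek were used by the authors, with roles and versions not given in the sources used here. The log2 scale was read from the range of values. There are no scanner files or detection calls, so brightness relative to the array median stands in for signal over background. Of 45101 probe sets, 64 controls were left out, 34945 others carried 1 symbol, and 18193 genes were represented. All 5 columns matched a sample.

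For each gene the group difference came from a linear model with moderated variance (limma, version 3.58.1, under R 4.3.3). Tests were two-sided and had no covariates; p-values were adjusted by Benjamini-Hochberg over the 11902 genes, with a threshold of 0.05. The prior added 1.69 degrees of freedom, and the median SE was 0.107. Bright probe sets were also fitted separately (20210). The script was tested on simulated data. Alternatives were other normalizations, brightness filters and probe set choices, variance settings, array weights, a replicate block and leaving out arrays. Substrate classes followed the family number, with single genes set by hand.

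Members and lists were chosen with earlier results of these data known. Named genes were the 10 smallest p per direction, the 3 smallest p and 2 highest means of each class, and a list of transporters long studied in heart or immune cells, 72 in all; Slc38a4, Slc26a2 and those at the brightness edge or with repeated values were chosen after their values were seen. Neighbouring genes came from RefSeq (GRCm38.p6), which served for names and order; 0 symbols changed. Figures were drawn with matplotlib 3.10.9.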

Additional observations from a re-analysis of the deposited data

How the results depend on the processing

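The count of 0 members past the adjusted threshold held under the 17 alternatives run. The lowest adjusted p of a named member was 0.0548, for Slc6a16 with array weights. The count at an unadjusted p under 0.05, 6 as reported (3.73%, against 5.55% of all genes), was 12 with array weights (7.45%, against 7.52%), 13 with the replicate block (8.07%, against 8.98%) and 15 of 255 when each probe set was tested (5.88%, against 5.17%). It was 4 to 13 with 1 array left out (2.52% to 8.23%, against 3.8% to 7.7%). Of the settings chosen after seeing the data, leaving out both NZB_W array 3 and NZW array 2 gave 16 (10.3%, against 8.75%), and leaving out both NZB_W array 1 and NZW array 2 gave 3 (1.9%, against 4.34%). The median difference of members, 0.017, was 0.0012 to 0.037 with 1 array left out and 0.0 without both NZB_W array 3 and NZW array 2. Partners and regulators at an unadjusted p under 0.05, 2 as reported, were 4 with quantile normalization, with no filter on dim probe sets and with the replicate block, 1 with the mean of all probe sets and without both NZB_W array 1 and NZW array 2, 5 with array weights and 0 to 4 with 1 array left out.

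Of 72 named members, 45 kept their sign under every alternative that gave them a value and 27 changed it under at least 1. Replicate numbers are given only in titles, so they were not treated as pairs. Same-numbered arrays had deviations correlated at -0.258 and 0.102. These values cannot decide the matter, because the deviations of 2 NZW arrays from their mean mirror each other. Dim values and 2 control arrays limit every difference.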
